A study of Mus musculus with 9 samples.

Results

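The genes described here encode the collagen chains and the enzymes and enhancers that act on procollagen in mouse Balb/c-3T3 fibroblasts. They are defined by name, as every probeset whose single annotated symbol is a collagen chain or one of 13 named collagen-processing genes. The names were chosen with earlier results of these data known. Of 45037 probesets tested 102 were members, for 54 of 18193 genes, of which 42 encode collagen chains and 12 the other proteins. The remaining named gene, Loxl2, is measured only by probesets that carry a second symbol and was not used. RNA was compared from 3 lines on 3 arrays each: unmodified Balb/c-3T3 cells as the control, Balb/c-3T3 cells stably transfected with pMvSrc, which encodes the oncogenic tyrosine kinase v-Src, and Balb/c-3T3 cells stably transfected with pRc/CMV-STAT3C, which encodes STAT3-C, a constitutively active form of the transcription factor STAT3. All lines were grown in the same medium with bovine calf serum. The arrays of a line are consecutive passages of 1 line, with pooled dishes at each passage, so the p-values reflect passages of a single line and say nothing of other clones. The control cells are described as unmodified, and a line with an empty plasmid was not analysed here. The comparison asks which genes differ from control in v-Src cells, in STAT3-C cells or in both. STAT3 activity was not measured on these arrays. Per the paper, Src also acts on pathways independent of STAT3.

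Collagen is a triple helix of chains. The fibrillar types I, III, V and XI build the tensile fibrils of connective tissue, type IV forms the sheet-like network of basement membranes, and type VI forms beaded filaments around cells. In the endoplasmic reticulum prolyl 4-hydroxylases stabilize the helix and lysyl hydroxylases prepare lysines for crosslinking and glycosylation. Outside the cell, procollagen C-proteinase enhancers speed the removal of the C-terminal propeptide, and lysyl oxidases start the crosslinks between mature molecules. Fibroblasts are a main source of fibrillar collagen in the body.

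Levels are Robust Multichip Average (RMA) values on the log2 scale as deposited, and a gene is represented by its probeset of highest mean level on the 9 arrays. Median levels of the arrays lay between 6.27 and 6.39. A gene was counted as higher or lower at an adjusted p under 0.05 (limma, Benjamini-Hochberg over all probesets) and a fold of at least 1.5. A mean level under 5.12, the lower quartile of all probesets, is called near background here. Of the 54 member genes, 5 lay there in all 3 lines at the probeset that stands for them (Col17a1, Col24a1, Col26a1, Col4a4 and Col6a5). Further probesets of other genes, such as Col12a1 and Col14a1, lay there too. A level above this limit does not by itself show that a gene is expressed. Fewer cells that express a gene and less RNA per cell cannot be told apart in these bulk samples. Of 7 fibroblast markers, Vim, an intermediate filament protein, lay between 13.03 and 13.47 on all 9 arrays. Thy1, a surface glycoprotein, fell by 5.17 in v-Src cells and fell by 5.18 in STAT3-C cells, Pdgfrb and Pdgfra fell in both lines, Prrx1 fell in v-Src cells, and S100a4 rose in both. Their summed level was 14.65 to 14.92 in control, 14.58 to 14.70 in v-Src and 14.71 to 14.72 in STAT3-C cells. The sum is taken off the log scale, so Vim and S100a4 set most of it and the other markers hardly move it. Over the 7 markers the median log2 fold change was -0.94 in v-Src cells and -0.43 in STAT3-C cells. The part of these markers in the results was not tested. Summed levels in the same order were 9.83 to 10.11, 10.16 to 10.28 and 9.72 to 9.86 for 6 epithelial markers, and 7.51 to 7.74, 7.73 to 7.85 and 7.68 to 7.85 for 4 endothelial markers. For 3 leukocyte markers they were 7.28 to 7.87, 7.33 to 7.77 and 8.07 to 8.54, where Cd68 rose by 1.14 in STAT3-C cells, and the defining leukocyte gene Ptprc was near background in all lines. The 2 chondrocyte markers, Sox9 and Acan, and the osteoblast marker Sp7 did not pass against control in either line.

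In v-Src cells, 9 member genes were called higher and 8 lower against control, beside 9.54% higher and 10.4% lower of all genes. With STAT3-C, 7 were higher and 11 lower, beside 11.9% and 10.3%. The median log2 fold change of the 54 genes was -0.02 in v-Src cells and -0.10 in STAT3-C cells, and of all genes 0.02 and 0.04. Chains and processing genes did not divide alike: of the 42 collagen chains v-Src cells had 3 higher and 6 lower and STAT3-C cells 4 higher and 9 lower, whereas of the 12 enzymes and enhancers v-Src cells had 6 higher and 2 lower and STAT3-C cells 3 higher and 2 lower. The difference between chains and processing genes was not tested. Arrays of the 2 lines compared did not overlap for 17 member genes above and 17 below control in v-Src cells (24.3% and 23% of all genes), and for 13 above and 18 below in STAT3-C cells (27.6% and 20.8%). Counted by probeset, v-Src cells had 15 of 102 higher and 16 lower, beside 8.75% and 8.1% of all probesets, and 12 higher and 18 lower in STAT3-C cells, beside 9.68% and 8.58%. Higher in both lines were 5 genes (Col11a1, Col5a3, P4ha2, Pcolce and Pcolce2), and lower in both were 7 (Col1a1, Col5a2, Col6a1, Col6a2, Col12a1, Loxl1 and Loxl3), beside 6.33% and 6.74% of all genes. Both comparisons use the same control arrays. No gene or probeset of the members passed in opposite directions, which was also rare among all genes. Of 18193 genes, 10 were higher in v-Src and lower in STAT3-C cells, and 14 the reverse. Of 45037 probesets these were 28 and 42.

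**Figure D1:**
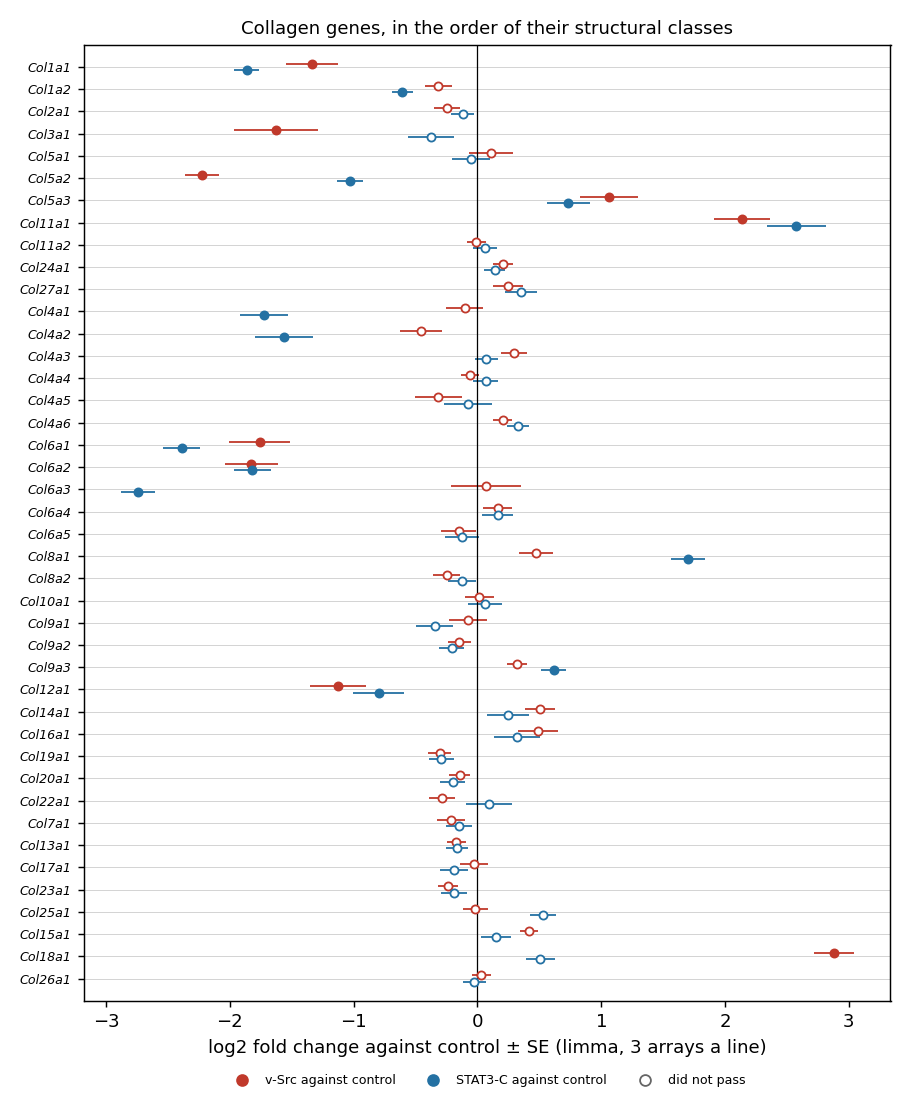
Log2 fold change against control cells (horizontal axis, with the limma standard error, 3 arrays for each line) of the 42 collagen genes (vertical axis, in the order of fibrillar, type IV, type VI, short-chain, fibril-associated, anchoring, membrane, multiplexin and other chains), with v-Src cells in red and STAT3-C cells in blue. Filled points passed the test, and open points did not. Most chains lie near 0, and the widest gaps between the lines are at Col6a3 (0.07 and -2.74) and Col18a1 (2.88 and 0.51).

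Of 11 fibrillar chains 3 were lower in each transfected line and 2 were higher, namely Col11a1 and Col5a3. Col1a1 encodes the major chain of type I collagen. Its level was 13.08, 12.90 and 13.11 on the control arrays, 11.51, 11.38 and 12.21 in v-Src cells and 11.07, 11.16 and 11.27 in STAT3-C cells. All transfected arrays lay below all control arrays, and Col1a1 fell by 1.34 in v-Src cells (standard error 0.21, adjusted p = 0.00315) and fell by 1.86 in STAT3-C cells (standard error 0.10, adjusted p = 1.08e-05), which is 2.53-fold and 3.64-fold lower. Its other probeset, 1455494_at, fell by 0.94 and fell by 0.59. Col1a2, the partner chain of the type I heterotrimer, moved less at the probeset that stands for it: it lay at 13.33 ± 0.05 (SD, n = 3) in control cells, had a log2 fold change of -0.32 in v-Src cells (adjusted p = 0.0691) and fell by 0.61 in STAT3-C cells (adjusted p = 0.00104). Its probesets differed in which line passed: 1423110_at fell by 1.11 in v-Src cells and had -0.05 in STAT3-C cells, 1446326_at fell by 1.36 in v-Src cells and had -1.22 in STAT3-C cells without passing (its v-Src level is near background, so the size is uncertain), and the mean of all Col1a2 probesets had -0.93 in v-Src cells and passed.

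Col3a1, the only chain of type III collagen, fell in v-Src cells. It measured 12.35, 13.15 and 12.77 in control cells, 11.22, 10.43 and 11.74 in v-Src cells and 12.38, 12.48 and 12.28 in STAT3-C cells. The v-Src arrays lay below every control array and the STAT3-C arrays overlapped with the controls. The log2 fold change was -1.63 in v-Src cells (standard error 0.34, adjusted p = 0.0112) and -0.38 in STAT3-C cells (adjusted p = 0.174). At 1427884_at the same order was wider, with -3.17 and -0.19. Col5a2, a chain of type V collagen, which sits inside type I fibrils and limits their width, was 12.63, 12.76 and 12.86 in control, 10.23, 10.65 and 10.70 in v-Src and 11.82, 11.74 and 11.61 in STAT3-C cells, so that the 3 lines did not overlap. It fell by 2.22 (standard error 0.14, adjusted p = 6.01e-05) and fell by 1.03 (standard error 0.10, adjusted p = 0.000203), although in STAT3-C cells its probeset 1450625_at had -0.37 and did not pass. The usual partner chain Col5a1 had 0.11 and -0.05 and did not pass in either line at the probeset that stands for it. Its other probesets had lower values: 1416741_at had -0.54 in v-Src cells without passing and fell by 0.86 in STAT3-C cells. At 1434479_at the values were -0.49 and -0.55, and neither passed. Col5a3, a less common type V chain, rose by 1.06 in v-Src cells (adjusted p = 0.0139) and 0.73 in STAT3-C cells (adjusted p = 0.014). That rise rested on single arrays: without control replicate 3 it was 0.94 and 0.61 and passed in neither line, and without STAT3-C replicate 2 it was 0.57. Its other probeset, 1425984_at, was near background in all lines, had 0.23 and 0.07 and did not pass. The mean of both Col5a3 probesets had 0.40 in STAT3-C cells and was under the fold threshold.

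Col11a1 encodes a type XI chain, which nucleates thin fibrils and is best known from cartilage. It lay at 5.62, 5.56 and 5.32 in control cells, 7.59, 7.19 and 8.13 in v-Src cells and 8.26, 8.48 and 7.48 in STAT3-C cells. Every transfected array was above every control array, and the gene rose by 2.14 (standard error 0.22, adjusted p = 0.000539) and 2.57 (standard error 0.24, adjusted p = 0.000138), or 4.39-fold and 5.96-fold. Its other probeset, 1449154_at, rose by 2.59 and 4.67 from a control level near background (3.88, 3.95 and 3.80), so their size is uncertain. Of other chains known from cartilage, the log2 fold changes in v-Src and STAT3-C cells were -0.25 and -0.12 for Col2a1, -0.01 and 0.06 for Col11a2, -0.08 and -0.34 for Col9a1, -0.14 and -0.21 for Col9a2 and 0.02 and 0.06 for Col10a1, and none of these passed. Col9a3, another type IX chain, rose by 0.61 in STAT3-C cells (adjusted p = 0.00215), close to the fold threshold, and did not pass after median centring (0.57), after another quantile normalization (0.58) or without STAT3-C replicate 3 (0.55). Its other probesets did not pass, with values down to -0.02, and neither did the mean of all its probesets (0.38).

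**Figure D2:**
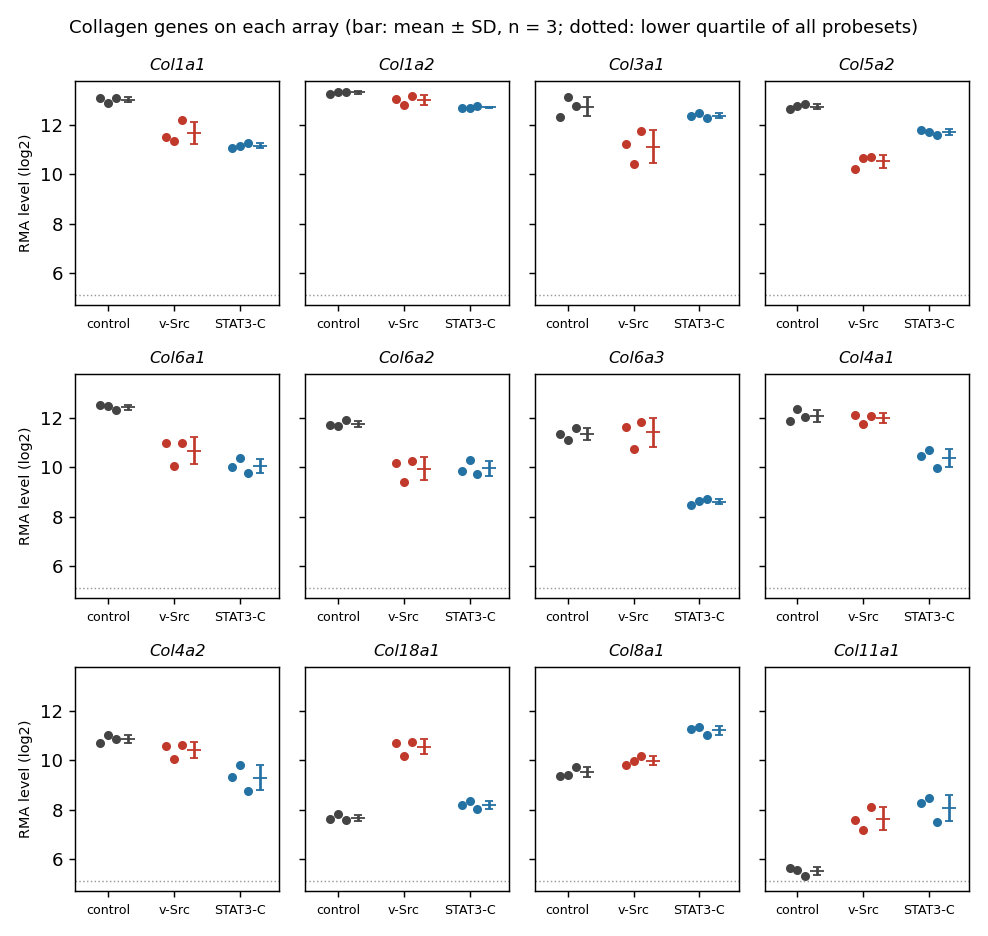
RMA level on the log2 scale (vertical axis) of 12 collagen genes on each of 3 arrays for control (grey), v-Src (red) and STAT3-C (blue) cells, with the mean ± SD beside the points and the lower quartile of all probesets (5.12) dotted. Col6a3, Col4a1 and Col4a2 are low in STAT3-C cells, Col3a1 and Col5a2 are lowest in v-Src cells, and Col18a1 is high in v-Src cells.

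Type VI collagen is assembled from 3 different chains, and these did not move together in v-Src cells. Col6a1 was 12.51, 12.49 and 12.33 in control, 10.98, 10.06 and 11.01 in v-Src and 10.02, 10.37 and 9.77 in STAT3-C cells. It fell by 1.76 (standard error 0.25, adjusted p = 0.00189) and fell by 2.39 (standard error 0.15, adjusted p = 2.32e-05), with both transfected lines below all control arrays. Col6a2 fell by 1.83 and fell by 1.82 (standard errors 0.22 and 0.15), and its other probeset, 1426947_x_at, fell by 1.87 and fell by 2.17. Col6a3, which encodes the longest of the chains, measured 11.34, 11.10 and 11.61 in control cells, 11.65, 10.76 and 11.84 in v-Src cells and 8.49, 8.63 and 8.71 in STAT3-C cells. The v-Src arrays spanned the control range, while the STAT3-C arrays lay far below it. Its log2 fold change was 0.07 in v-Src cells (standard error 0.28, adjusted p = 0.888), and it fell by 2.74 in STAT3-C cells (standard error 0.14, adjusted p = 8.19e-06), 6.69-fold. Neither Col6a4 (0.16 and 0.16) nor Col6a5 (-0.15 and -0.12) passed.

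The type IV chains that form the common basement membrane network were lower in STAT3-C cells. Col4a1 was 11.89, 12.37 and 12.04 in control, 12.14, 11.77 and 12.07 in v-Src and 10.45, 10.69 and 9.98 in STAT3-C cells. It had -0.10 in v-Src cells (adjusted p = 0.652) and fell by 1.73 in STAT3-C cells (standard error 0.19, adjusted p = 0.000372). Probeset 1426348_at gave -0.06 and -1.54. Col4a2, its obligate partner, was 10.69, 11.03 and 10.87 in control, 10.57, 10.05 and 10.61 in v-Src and 9.34, 9.79 and 8.77 in STAT3-C cells. It had -0.45 in v-Src cells (adjusted p = 0.0864) and fell by 1.57 in STAT3-C cells (standard error 0.23, adjusted p = 0.0016). These 2 genes are transcribed in opposite directions from starts that lie 21 bases apart in RefSeq's GRCm38.p6 annotation. Col4a5, a chain of the network of kidney and smooth muscle, had -0.32 and -0.07, while its other probeset, 1425475_at, fell by 0.83 in STAT3-C cells (adjusted p = 0.0191). Col4a3, Col4a4 and Col4a6 did not pass, with log2 fold changes between -0.06 and 0.33.

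Of the remaining chains, Col18a1, Col8a1 and Col12a1 passed in at least 1 line. Col18a1, a proteoglycan-like basement membrane chain whose C-terminal fragment is endostatin, measured 7.64, 7.80 and 7.58 in control, 10.72, 10.19 and 10.76 in v-Src and 8.19, 8.35 and 8.01 in STAT3-C cells. It rose by 2.88 in v-Src cells (standard error 0.16, adjusted p = 3.76e-05), 7.36-fold, with 0.51 in STAT3-C cells (adjusted p = 0.0122), a value short of the required fold. Its other probeset gave 2.71 and 0.10. Col8a1, a short chain of the vessel wall and of the membrane under the corneal endothelium, was 9.38, 9.40 and 9.75 in control, 9.81, 9.96 and 10.18 in v-Src and 11.26, 11.35 and 11.02 in STAT3-C cells. Its STAT3-C arrays lay above all others, and it had 0.48 in v-Src cells (adjusted p = 0.0389, under the fold threshold) and rose by 1.70 in STAT3-C cells (standard error 0.13, adjusted p = 6.51e-05). Its other probesets had smaller values in STAT3-C cells (0.55 at 1418440_at and 0.96 at 1418441_at), and the latter rose by 0.74 in v-Src cells. Col12a1, a fibril-associated chain that links fibrils to their surroundings, was 8.36, 8.74 and 9.18 in control, 7.32, 7.85 and 7.73 in v-Src and 8.09, 8.09 and 7.72 in STAT3-C cells. It fell by 1.13 (adjusted p = 0.00894) and fell by 0.80 (adjusted p = 0.0202), and fell by 2.91 and fell by 1.72 at 1434411_at. In STAT3-C cells the smaller value missed the threshold when STAT3-C replicate 1 (-0.86) or 3 (-0.67) was left out.

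No other chain passed against control at any probeset. Col16a1, a fibril-associated chain of skin and cartilage, had 0.49 and 0.32 and Col14a1, another fibril-associated chain, 0.51 and 0.24 in v-Src and STAT3-C cells. For Col15a1, the other multiplexin, the values were 0.42 and 0.15. Col7a1, the chain of the anchoring fibrils of skin, had -0.21 and -0.15. Of the membrane-spanning chains (Col13a1, Col17a1, Col23a1 and Col25a1) the widest value was 0.53 for Col25a1 in STAT3-C cells, under the fold threshold. The other Col25a1 probeset, 1438540_at, went the other way, with -0.49 in both v-Src and STAT3-C cells, where it was near background. It did not pass, and it had 0.001 in the direct comparison. Col27a1, a long fibrillar chain, had 0.24 and 0.35.

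The products of the 6 prolyl and lysyl hydroxylase genes modify the chains inside the cell. At the probesets that stand for them, P4ha2 and the 3 Plod genes rose in v-Src cells. In STAT3-C cells P4ha2 alone passed there, while Plod2 passed at its other probeset. P4ha2, a catalytic subunit of prolyl 4-hydroxylase, was 8.54, 8.79 and 9.09 in control, 10.94, 10.08 and 10.99 in v-Src and 9.74, 10.28 and 9.28 in STAT3-C cells. It rose by 1.86 in v-Src cells (standard error 0.26, adjusted p = 0.00184) and by 0.96 in STAT3-C cells (standard error 0.24, adjusted p = 0.0194). The STAT3-C value did not pass without control replicate 1 (0.83) or STAT3-C replicate 1 (0.97). For P4ha1, the more widely used subunit, the values were 0.11 and -0.38 at the probeset that stands for it, while 1426519_at rose by 1.08 in v-Src cells (adjusted p = 0.00416). P4ha3 had 0.25 and -0.42 and passed in neither line.

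All 3 lysyl hydroxylase genes rose in v-Src cells. Plod1 was 8.38, 8.74 and 8.57 in control, 9.69, 9.16 and 9.69 in v-Src and 8.85, 9.21 and 8.35 in STAT3-C cells. Plod2, whose enzyme acts on the telopeptide lysines that form stable crosslinks, was 8.90, 8.54 and 8.88 in control, 10.51, 9.98 and 10.89 in v-Src and 9.40, 9.69 and 8.92 in STAT3-C cells. Plod3, whose enzyme also transfers sugars to hydroxylysine, was 10.70, 10.86 and 10.60 in control, 11.74, 11.39 and 11.77 in v-Src and 10.58, 10.62 and 10.58 in STAT3-C cells. For each of them every v-Src array lay above every control array. The rises were 0.95 (standard error 0.17, adjusted p = 0.00511), 1.69 (standard error 0.23, adjusted p = 0.00157) and 0.92 (standard error 0.12, adjusted p = 0.0017). In STAT3-C cells the values were 0.24, 0.56 and -0.13, and none passed at these probesets. Plod2 did pass in STAT3-C cells at 1416687_at, where it rose by 2.25 and 1.16, and at the first probeset without STAT3-C replicate 3 (0.77). The mean of both Plod2 probesets also passed in STAT3-C cells (0.86, adjusted p = 0.00405). The mean of both Plod1 probesets, of which 1445893_at lay between 5.36 and 5.70 on all arrays, had 0.45 in v-Src cells and was under the fold threshold.

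Of the 4 lysyl oxidase genes Loxl1 and Loxl3 fell in both lines, and Lox and Loxl4 did not pass. Loxl3, a member of the lysyl oxidase family, was 10.54, 10.63 and 10.86 in control, 8.52, 8.39 and 8.52 in v-Src and 8.07, 8.43 and 8.04 in STAT3-C cells, without overlap between control and transfected arrays. It fell by 2.2 (standard error 0.10, adjusted p = 1.7e-05) and fell by 2.49 (standard error 0.14, adjusted p = 1.19e-05). Loxl1, an oxidase best known for its action on elastin, was 11.28, 11.28 and 11.19 in control, 9.60, 9.86 and 9.65 in v-Src and 9.79, 9.96 and 9.96 in STAT3-C cells. The transfected arrays again lay below all control arrays, and Loxl1 fell by 1.55 and fell by 1.35 (standard error 0.09 for both), while its probeset 1436063_at fell by 0.99 and fell by 1.07. Lox itself, the prototype of the family, was 12.65, 12.35 and 12.49 in control, 11.84, 11.78 and 12.49 in v-Src and 12.80, 12.55 and 12.67 in STAT3-C cells. Its log2 fold changes of -0.46 and 0.18 did not pass, although it passed in v-Src cells when v-Src replicate 6 was left out (-0.69). Another Lox probeset, 1437903_at, rose by 0.66 in STAT3-C cells. Loxl4 had -0.16 and -0.25, and its other probeset, 1450134_at, had 0.63 and 0.49 with all transfected arrays above control, and neither passed (adjusted p = 0.0702 and 0.104 for the latter).

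**Figure D3:**
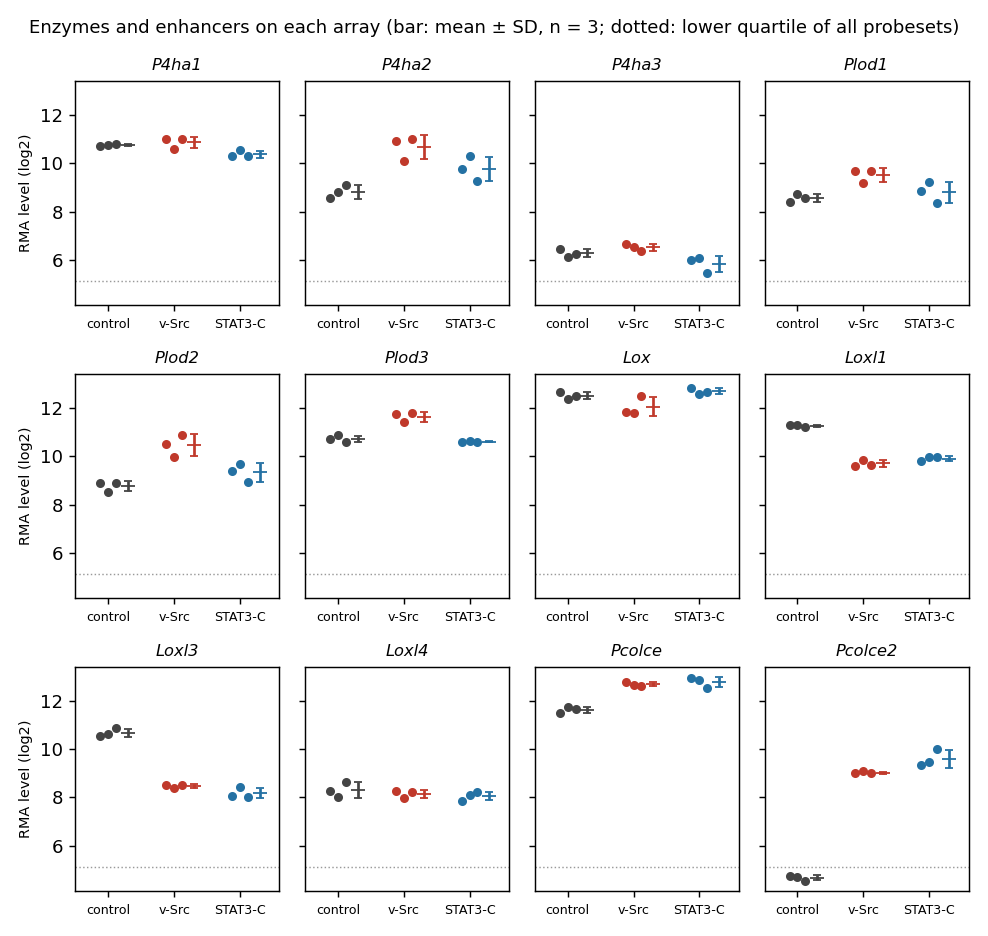
RMA level on the log2 scale (vertical axis) of the 12 enzyme and enhancer genes on each of 3 arrays for control (grey), v-Src (red) and STAT3-C (blue) cells, with the mean ± SD beside the points and the lower quartile of all probesets (5.12) dotted. Pcolce2 is near background in control cells alone, Loxl1 and Loxl3 are lower in both transfected lines, and the Plod genes have their highest means in v-Src cells.

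Both procollagen C-proteinase enhancers rose in both lines. Pcolce2 had the largest change of all members: it lay at 4.77, 4.72 and 4.56 in control, 9.0, 9.08 and 9.01 in v-Src and 9.33, 9.45 and 10.00 in STAT3-C cells. The rises of 4.34 (standard error 0.08, adjusted p = 6.12e-07) and 4.91 (standard error 0.17, adjusted p = 1.22e-06) are 20.3-fold and 30-fold as deposited, and since the control level is near background their size is uncertain. The study picked Pcolce2 from these arrays as one of its leading induced genes, so its direction here is not independent evidence. Pcolce was 11.49, 11.73 and 11.67 in control cells and reached 12.78, 12.65 and 12.63 in v-Src cells and 12.93, 12.85 and 12.53 in STAT3-C cells. It rose by 1.05 and 1.14 (adjusted p = 0.000245 and 0.000354), and by 1.03 and 0.64 at 1448433_a_at.

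Promoter windows from RefSeq (GRCm38.p6, 250 bases before to 50 after a start) were available for 41 of the 54 genes, in 44 windows. They were searched on both strands for TTCNNNGAA, the palindromic consensus of STAT factors, which reads the same on either strand. The study searched with a looser consensus. Its site in the Necdin promoter neither matches this motif nor lies within 250 bases of the start, so the search covers only part of such sites. The motif was found in 2 of the 44 windows (4.55%), beside 8.3% of all 32851 windows. One of these belongs to Pcolce2, the member with the largest change, and the other to Col6a5, which was near background in all lines. Both are shown 5′ to 3′ with the matching bases in capitals, for Pcolce2 the 250 bases before the start (chr9:95637378-95637627, plus strand) and for Col6a5 the match with 10 bases on each side (chr9:105960834-105960862, minus strand). The first base of the match lies 170 bases before the start of Pcolce2 and 209 before that of Col6a5.
Pcolce2: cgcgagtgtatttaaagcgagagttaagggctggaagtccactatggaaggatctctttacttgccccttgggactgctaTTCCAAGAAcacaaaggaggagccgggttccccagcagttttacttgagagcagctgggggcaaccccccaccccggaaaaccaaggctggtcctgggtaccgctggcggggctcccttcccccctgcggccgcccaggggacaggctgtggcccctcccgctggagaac
Col6a5: ggtcgtggatTTCTGAGAAactctgcctt
A match of these letters is a description and not a binding site, and the rest of the 41 genes searched have no match within these windows. The remaining member genes, among them Col1a1, Col5a2, Col12a1, Lox, Loxl1, Loxl3 and Plod2, were not searched.

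The transfected lines were also compared directly, without the control arrays. Relative to STAT3-C cells, v-Src cells had 7 member genes higher and 3 lower, beside 4.84% and 6.83% of all genes, and 11 probesets were higher and 9 lower, beside 4.99% and 5.33%. Arrays did not overlap for 11 genes above and 8 below (17.6% and 22.7% of all genes). The median log2 difference was 0.03 over the members and -0.03 over all genes. Col6a3 differed by 2.81 (95% interval 2.20 to 3.42, adjusted p = 0.000811), Col18a1 by 2.37 (1.98 to 2.76, adjusted p = 0.000384) and Col4a1 by 1.62 (1.19 to 2.06, adjusted p = 0.00167). These 3 and Plod3, with 1.04 (0.78 to 1.31), did not overlap between the lines and passed whichever array was left out. Col4a2 (1.11), Plod2 (1.12) and P4ha3 (0.67) were also higher in v-Src cells, with adjusted p = 0.0247, 0.0234 and 0.0296. Each of them lost the call when single arrays were left out: Col4a2 when it was v-Src replicate 1 (1.03), v-Src replicate 6 (1.01) or STAT3-C replicate 1 (1.13), Plod2 when it was v-Src replicate 1 (1.1), v-Src replicate 6 (0.91), STAT3-C replicate 1 (1.15) or STAT3-C replicate 3 (0.92), and P4ha3 without any one of the v-Src arrays (0.61, 0.66 and 0.75 without replicates 1, 5 and 6) or STAT3-C replicate 1 (0.75) or 3 (0.48). Plod1 differed by 0.72 (0.17 to 1.26, adjusted p = 0.072) and P4ha2 by 0.90 (0.17 to 1.63, adjusted p = 0.0836), which did not pass.

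On the lower side in v-Src cells were the fibrillar chains Col5a2 and Col3a1 and the short chain Col8a1. At probesets other than those that stand for the genes, Col1a2 (1423110_at, -1.05) and Lox (-0.67) were also lower and P4ha1 (0.64) was higher. Col5a2 had -1.19 (-1.52 to -0.87, adjusted p = 0.00168) and Col8a1 -1.23 (-1.52 to -0.93, adjusted p = 0.00116). The Col8a1 difference rests on 1 probeset, since the other probesets had -0.17 and -0.22 and did not pass. Col3a1 had -1.25 (-1.93 to -0.57, adjusted p = 0.0233) and -2.97 at 1427884_at. The first of these lost its call in the absence of v-Src replicate 1 (-1.29) or of STAT3-C replicate 1 (-1.25), 2 (-1.20) or 3 (-1.30). Of the genes that changed alike in both lines, Col5a2 alone also passed here at the probeset that stands for the gene (Col11a1 had -0.44 there and -2.08 at 1449154_at, and Col12a1 -0.33 and -1.19 at 1434411_at, where the second of each pair passed), and the 95% intervals of the others were, for example, 0.05 to 1.01 for Col1a1, -0.36 to 0.18 for Pcolce and -0.96 to -0.18 for Pcolce2. For Col1a1 and Pcolce the other probeset had the opposite sign in this comparison (-0.36 for Col1a1 and 0.39 for Pcolce), and neither passed. The methods describe separate RMA runs for the v-Src and STAT3-C arrays, and if the deposited columns come from these, run and line cannot be told apart in the direct comparison.

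**Figure D4:**
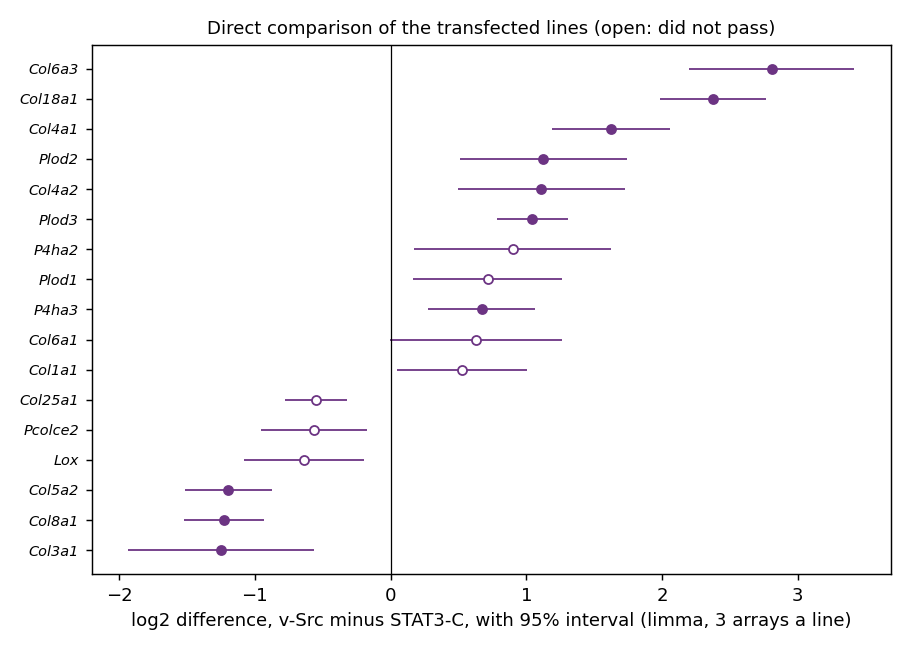
Log2 difference between v-Src and STAT3-C cells (horizontal axis, v-Src minus STAT3-C, with the 95% interval from limma) for the 17 member genes that passed or differed by at least 0.5. Filled points passed. Col6a3 (2.81) and Col18a1 (2.37) lie farthest to the right, and Col3a1, Col8a1 and Col5a2 lie together near -1.2.

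Of 19 other listed genes of collagen biosynthesis 16 were measured, of which v-Src cells had 2 higher and 2 lower and STAT3-C cells 2 higher and 3 lower, and the median log2 fold change was 0.07 and -0.14. The shares of all genes were 9.54% and 10.4% for v-Src cells and 11.9% and 10.3% for STAT3-C cells. Tgm2, a transglutaminase that crosslinks matrix proteins, rose by 2.77 and 4.19 (it is also among the genes the study listed from these arrays). Creb3l1, a transcription factor that drives collagen secretion in bone cells, fell by 0.95 and fell by 1.11 (adjusted p = 0.000263 and 9.19e-05), and P3h2, a prolyl 3-hydroxylase that acts on type IV collagen, fell by 0.69 and fell by 0.97. Colgalt1, a collagen galactosyltransferase, rose by 0.78 in v-Src cells, and P3h1 rose by 0.72 and P3h3 fell by 1.01 in STAT3-C cells. The collagen chaperone Serpinh1 had -0.34 and -0.49 and P4hb, the shared subunit of the prolyl 4-hydroxylases, 0.41 and 0.09, under the fold threshold or the test. The procollagen C-proteinase Bmp1, the target of the enhancers, had 0.05 and -0.22.

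Of 13 measured genes for collagen receptors and breakdown, 5 were lower in v-Src cells and 7 in STAT3-C cells, none was higher in either, and the median was -0.18 and -1.0. Of all genes 10.4% and 10.3% were lower. Mmp13, an interstitial collagenase, was 6.81, 8.33 and 7.51 in control cells, 3.79, 3.71 and 3.55 in v-Src cells and 3.50, 3.49 and 3.46 in STAT3-C cells, where it is near background, and the fitted values of -3.87 and -4.07 are uncertain in size. Mrc2, an endocytic collagen receptor, fell by 1.97 and fell by 2.59, Mmp2, a gelatinase, fell by 2.05 and fell by 2.56, and Ctsk, a collagen-degrading lysosomal protease, fell by 1.75 and fell by 2.74. Itgb1, the beta subunit of the collagen-binding integrins, fell by 1.05 and fell by 1.71. Ddr2, a receptor tyrosine kinase for fibrillar collagen, and Mmp14, a membrane-bound collagenase, fell in STAT3-C cells by 1.0 and 1.06, and had -0.42 and 0.07 in v-Src cells. In the direct comparison Mmp14 was higher in v-Src cells by 1.14 (adjusted p = 0.00267), Ctsk by 0.99 and Itgb1 by 0.67.

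**Figure D5:**
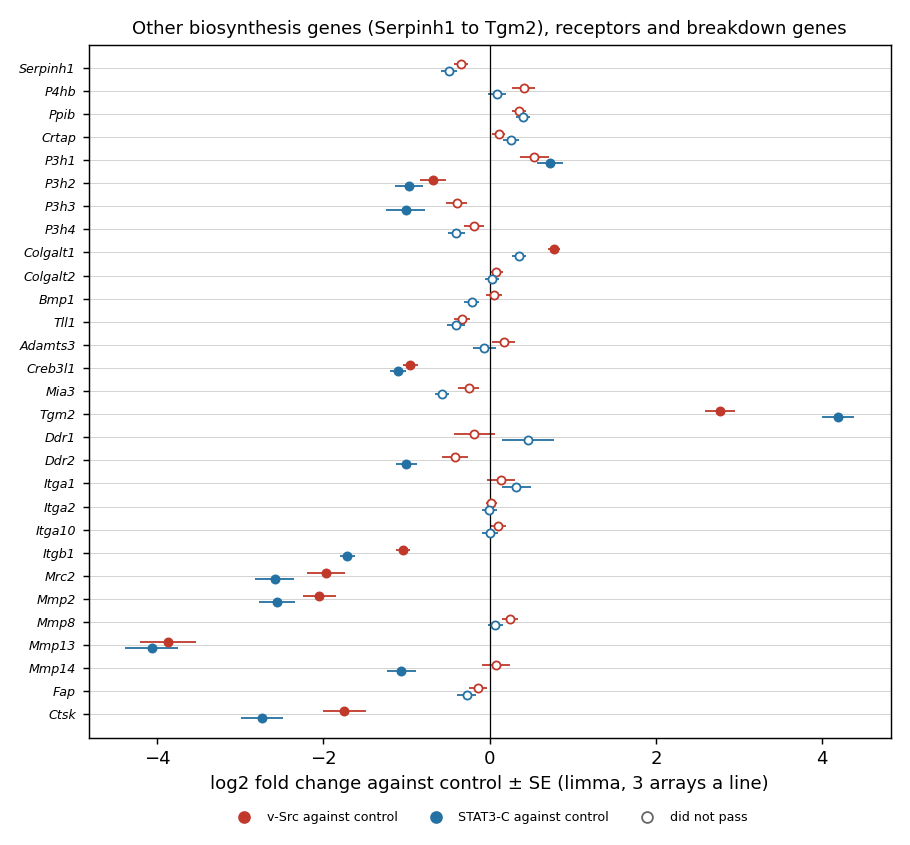
Log2 fold change against control cells (horizontal axis, with the limma standard error, 3 arrays for each line) of 16 other biosynthesis genes (Serpinh1 to Tgm2) and 13 receptor and breakdown genes (Ddr1 to Ctsk) on the vertical axis, with v-Src cells in red and STAT3-C cells in blue. Filled points passed. Tgm2 lies at 2.77 and 4.19 and Mmp13 at -3.87 and -4.07.

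For 34 of the 54 genes more than 1 probeset was measured. Their calls were the same for 28 genes in v-Src cells, 24 in STAT3-C cells and 28 in the direct comparison, and no gene had probesets called in opposite directions. Most of the genes with the same call had no probeset called at all. Calls differed for 6, 10 and 6 genes. Among genes with a called probeset, more differed than agreed in STAT3-C cells and in the direct comparison.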

How the data were processed

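RNA of 9 samples was measured on Affymetrix mouse genome arrays, 3 for each line, and groups and array numbers were taken from the sample titles. The authors made the deposited log2 values by Robust Multichip Average (RMA) from CEL files. Per the methods, RMA was run separately for the v-Src and for the STAT3-C set, each with the controls, and it is not stated which run gave the deposited control columns. No further normalization was applied for the reported values. The number of arrays limits the precision.

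The 64 control probesets were left out. Of the other 45037, 34945 carried 1 gene symbol, 932 several and 9160 none. Each comparison was fitted on its 6 arrays in R 4.3.3 with limma 3.58.1 (lmFit, eBayes), with Benjamini-Hochberg adjustment of p over all 45037 probesets. With 3 arrays in each line, the smallest p of an exact permutation test is 0.1. On simulated data with changes of known size the test recovered 90% of 2-fold changes for v-Src, 98% for STAT3-C and 95% for the direct comparison, and 100% of 4-fold changes. Plots used matplotlib 3.10.9 in python 3.11.15.

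The members and lists were chosen with earlier results of these data known. Named were every processing gene, every chain of types I, III, IV, V and VI, in each comparison up to 10 genes each way with the largest change whose arrays do not overlap, the chain with the highest level of the other classes, and up to 8 genes of each of the other collagen lists that passed in both lines. Genes or probesets beside these were named after their values were seen. Of the lists, Fkbp10, Adamts2, Adamts14, Itga11, Bglap and Runx2 had no probeset with a single symbol. The alternatives tried were a joint fit of the 9 arrays, a second quantile normalization, centring on the median, a filter on level, other thresholds, Significance Analysis of Microarrays (SAM, the test used by the study), a robust eBayes with a trend, omission of single arrays, the replicate number as a block, and averaging a gene's probesets.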

Additional observations from a re-analysis of the deposited data

Results flagged for a closer look

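The genes whose change differed between the transfected lines by the direct test are those to look at again. On the log2 scale, v-Src cells exceeded STAT3-C cells for Col6a3 by 2.81, Col18a1 by 2.37, Col4a1 by 1.62, Plod2 by 1.12, Col4a2 by 1.11, Plod3 by 1.04 and P4ha3 by 0.67. Lower in v-Src cells were Col3a1, with -1.25, Col8a1, with -1.23, and Col5a2, with -1.19. No member had a single array tested as an outlier, since 3 arrays a line are too few for that.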

How the results depend on the processing

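Of 2598 values of single member genes under the alternatives, 2511 kept their call or stayed without one, 47 lost a call, 40 gained one and none of the called values changed sign. Most had no call to lose, since 37, 36 and 44 of the 54 genes were not called in v-Src cells, in STAT3-C cells and in the direct comparison. The 47 losses therefore fall on the smaller part of the values. Other thresholds, the joint fit, the filter on level, SAM, the robust eBayes and the replicate block keep the same difference of means. Under these the sign could not change, so only the remaining alternatives could have reversed it. With a fold of at least 2, the members higher in STAT3-C cells were 6 probesets and 4 genes. At an adjusted p under 0.01, the direct comparison had 7 probesets and 4 genes higher in v-Src cells. At the reported threshold these were 11 probesets and 7 genes, and when 1 array was left out they ranged from 7 to 15 probesets and from 4 to 10 genes, with the lowest values without v-Src replicate 1, v-Src replicate 6 or STAT3-C replicate 1. All other counts stayed within 1.5 times the reported count under every alternative that was run. Left-out arrays also gave calls to genes that missed them at the probeset that stands for the gene. Against control these were Lox in v-Src cells (-0.69 without v-Src replicate 6), Col16a1 (0.63 without control replicate 1) and Col8a1 (0.59 without control replicate 3), and in STAT3-C cells Plod2 (0.77) and Col18a1 (0.60) without STAT3-C replicate 3, and Col25a1 (0.59 without control or STAT3-C replicate 2). In the direct comparison Col6a1 (0.94), P4ha1 (0.63), P4ha2 (1.2) and Plod1 (0.89) passed without v-Src replicate 5, Plod1 also without STAT3-C replicate 2 (0.92), Lox without v-Src replicate 6 (-0.87), and Col25a1 without v-Src replicate 5 (-0.62) or STAT3-C replicate 2 (-0.61). SAM gave 9 genes higher and 8 lower in v-Src cells, 7 and 11 in STAT3-C cells, and 10 and 4 in the direct comparison. There Lox (-0.64) passed with SAM, in the joint fit, with the filter on level and with the robust eBayes. Col6a1, P4ha2 and Plod1 also passed with SAM, and Plod1 in the joint fit too.

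Control and STAT3-C arrays share the numbers 1, 2 and 3, but same-numbered arrays did not deviate together (r = -0.09, 0.06 and 0.04 across probesets), so the numbers were not taken as pairs. With a replicate block 12 probesets and 7 genes were higher and 19 probesets and 11 genes lower in STAT3-C cells. The v-Src arrays share only the number 1 with the others, so no block could be fitted there. Where a called change has a line near background, its size is not well measured: this holds for Pcolce2 and the Col11a1 probeset 1449154_at (control), the Col1a2 probeset 1446326_at (v-Src cells) and Mmp13 (both transfected lines).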
